A study of Mus musculus with 35 samples.

Results

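Nuclear pore and nuclear transport genes were followed in CTLs (cytotoxic CD8+ T cells) of OT-I mice, whose T cells carry a transgenic T-cell receptor for an ovalbumin peptide. Members were the protein-coding genes whose symbol starts with Nup, Kpna, Kpnb, Ipo or Xpo followed by a number (or is Xpot), together with Ran, Ranbp1, Rangap1 and Rcc1. The rule reads symbols and no measured level, but it was drawn up with earlier results of these data known. This gave 45 of the 48709 genes in the count tables, of which 21 were nucleoporins, 20 were transport receptors (karyopherins) and 4 belonged to the Ran system. A total of 43 passed the filter on low counts. The others were Kpna7, an importin alpha known from oocytes, with 0 to 3 reads per library, and Nup62cl, a relative of Nup62, with 0 or 1 read. Nup58 and Nup42 are listed in the annotation under older symbols, Nupl1 and Nupl2, and were counted with the other genes of the pathway.

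Nucleoporins build the pores through which RNA and proteins cross the nuclear envelope. An outer ring of Y-shaped complexes and an inner ring form the scaffold of the pore, flexible nucleoporins fill its channel, and further ones make up the filaments on the cytoplasmic side and the basket on the nuclear side. Karyopherins carry cargo through the channel and read the state of the small GTPase Ran: Rcc1 loads Ran with GTP on chromatin, Rangap1 with Ranbp1 ends the cycle in the cytoplasm, and the step between them sets the direction of transport. T cells that enter growth and division enlarge their nuclei and assemble new pores.

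The CTLs had been primed with antibodies to CD3 and CD28 and expanded for several days in IL-2, a cytokine that keeps activated T cells growing, and this history was common to every group. One group was taken at 0 h, the start of the experiment. The remaining 6 groups were cultured for 24 h in medium adjusted to pH 7.4, pH 7 or pH 6.6 with hydrochloric acid in the absence of IL-2 or in its presence at 200 IU/mL. Each group had 5 libraries numbered 1 to 5, 35 in all, made from polyadenylated RNA after dead cells had been removed on Ficoll. In vitro expanded cells with 1 receptor stand in for CTLs in a tumor, which is a limit of the model.

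Libraries held 16721319 to 34033340 reads on genes (median 24730020). The mean correlation of a library with the others of its group was at least 0.978. CD8 T-cell markers were abundant throughout, with a summed level of 7 genes between 2640 and 13177 CPM (CPM being counts scaled to a common library size by TMM), while Cd4 did not exceed 2.48 CPM. With the cytokine, the median of that sum was 10355 CPM at pH 7.4 and 4250 at pH 6.6. Of its genes, the effector Gzmb fell from 7796 ± 935 to 845 ± 323 CPM (mean ± SD, n = 5) and Prf1 fell too, while Cd3e, Trac and Cd8a rose by 0.50, 0.67 and 0.16 on the log2 scale and Cd3g and Cd8b1 did not pass the test. Summed levels of B-cell, erythroid and myeloid markers did not exceed 0.381, 0.235 and 3.35 CPM. The NK-cell markers Ncr1 and Klrb1c, which activated CD8 T cells can also carry, summed to between 8.27 and 94.96 CPM, with medians of 43.9 CPM at pH 7.4 and 25.2 at pH 6.6 in the presence of the cytokine. A summed level of 6 cycling genes (Mki67, Top2a, Ccnb1, Cdk1, Mcm5 and Pcna) had medians of 1136 CPM at 0 h, 294 at pH 7.4, 441 at pH 7 and 984 at pH 6.6. With IL-2 the medians were 4455 at pH 7.4, 4250 at pH 7 and 1395 at pH 6.6. Myc, which drives growth programmes, had medians of 164, 129 and 53.9 CPM in these 3 groups. Its median was 241 CPM at 0 h, and without IL-2 14.7 at pH 7.4, 15.4 at pH 7 and 26.04 at pH 6.6. From 0 h to pH 7.4 with IL-2, Myc had a log2 fold change of -0.54 (SE 0.11), while 40 of the 43 tested members rose. Reads outside genes made up 3.91% to 5.18% of the reads in the tables at pH 7.4 with IL-2 and 7.34% to 8.83% at pH 6.6 with IL-2, ranges that did not overlap. At 0 h, library 5 stood apart with 48.3% of reads aligned to several places and 2.58% outside genes. With IL-2, several marker levels and the read shares differed between pH 7.4 and pH 6.6, as did most transport genes. Without IL-2 the CD8 T-cell sum had medians of 3351 CPM at pH 7.4 and 2681 at pH 6.6, while many transport genes rose. The part of marker levels and read shares in the results on transport genes was not tested.

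Because the members moved largely together, their promoters were searched for motifs known from growth and cell cycle genes. RefSeq promoters on GRCm38, from 250 bases before to 50 bases after the gene start, were at hand for 36 of the 45 members. The E-box CACGTG, a motif bound by Myc among other factors and the same on both strands, was found in 7 members, or 19.4% of the 36, against 11.6% of the tested genes in that table. The NF-Y motif CCAAT, searched on both strands, was found in 52.8% of the members and 42.8% of tested genes. The ETS motif CCGGAAG, also on both strands, was found in 13.9% and 20.7%. The 36 members include Kpna7 and Nup62cl, which were not tested and both hold the NF-Y motif, so the sets compared are not quite alike. These matches describe letters and are not evidence of binding. No E-box was found in the promoter of Ranbp1, the member with the deepest fall in the main comparison below. The same held for Rcc1, Kpna2, Ipo5, Xpo1, Nup107 and Nup37, which also fell there. A link between the motif and the size of the fall was not tested. The stretches around the E-box of 4 members described in full are shown, read 5′ to 3′ on the strand of the gene with the E-box in capitals. In Nup54 it lies 100 bases and in Ran 118 bases before the RefSeq start. Nup188 holds a further E-box 24 bases before the start, which is not shown. The E-box of Ipo4, also described in full, lies at position 15 after the start and is not shown either.
Ran (chr5:129020001-129020080, plus strand): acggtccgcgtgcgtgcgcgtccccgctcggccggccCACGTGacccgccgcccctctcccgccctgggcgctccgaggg
Nup93 (chr8:94214352-94214431, plus strand): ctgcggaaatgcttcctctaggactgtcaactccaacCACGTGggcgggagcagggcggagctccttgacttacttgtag
Nup188 (chr2:30286313-30286392, plus strand): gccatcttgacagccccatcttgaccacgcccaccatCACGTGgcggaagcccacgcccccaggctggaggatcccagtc
Nup54 (chr5:92435257-92435336, minus strand): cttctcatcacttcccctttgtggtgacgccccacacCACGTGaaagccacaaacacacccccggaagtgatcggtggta

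The main comparison asked how pH 6.6 changed CTLs given IL-2. With IL-2 present, 39 of the 43 tested members fell at pH 6.6 against pH 7.4, 2 rose (Kpna4 and Kpna6) and 2 did not pass the test (Nup153 and Kpna1). Of all 13819 genes tested, 40.9% fell and 35.4% rose in the same comparison (edgeR's quasi-likelihood test, adjusted p under 0.05). The median log2 fold change of the members was -1.18 and that of all genes was -0.07. In 35 members every library at pH 6.6 lay below every library at pH 7.4, which held for 33.1% of all genes. Of the 39, 25 fell by at least 1 on the log2 scale, as did 2619 of all 13819 genes tested. The summed level of the 43 members was 8970 ± 632 CPM (SD, n = 5) at pH 7.4, and 4639 ± 127 at pH 6.6, beside 4983 ± 469 at 0 h. These are levels in bulk RNA, in which fewer cells of a kind and less RNA per cell cannot be told apart.

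The Ran system had the lowest median log2 fold change of the role groups, -2.44. Ran (chr5:129020069-129024323, GRCm38) was measured at 448, 448, 449, 480.1 and 473 CPM in libraries 1 to 5 at pH 7.4 with IL-2, and at 81.8, 76.8, 75.3, 93.3 and 98.6 CPM at pH 6.6. The groups lay far apart, and the log2 fold change was -2.44 (SE 0.08, adjusted p = 1.4e-22 by edgeR's quasi-likelihood test), a 5.42-fold fall. Ranbp1, which helps Rangap1 to make Ran hydrolyse GTP, went from 298, 286, 289.5, 274 and 301 CPM to 35.8, 26.8, 27.4, 42.6 and 46.9 CPM. This was the deepest fall of any member, with a log2 fold change of -3.03 (SE 0.13, adjusted p = 6.7e-20 by the same test). Rcc1, the exchange factor on chromatin, stood at 141, 137, 129, 134 and 129.5 CPM at pH 7.4 and at 23.3, 23.2, 21.7, 28.6 and 25.5 CPM at pH 6.6, a log2 fold change of -2.45 (SE 0.10). Rangap1 fell less, from 272, 338, 307, 317 and 304 CPM to 113, 139, 127, 138 and 132 CPM, by 1.25 on the log2 scale (SE 0.07). In all 4 genes each of the 5 numbered pairs of libraries moved the same way. Of the 50-base windows of Ran, 85.9% occur in no other gene's transcripts, so part of its reads may have been left uncounted in every group.

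**Figure D1:**
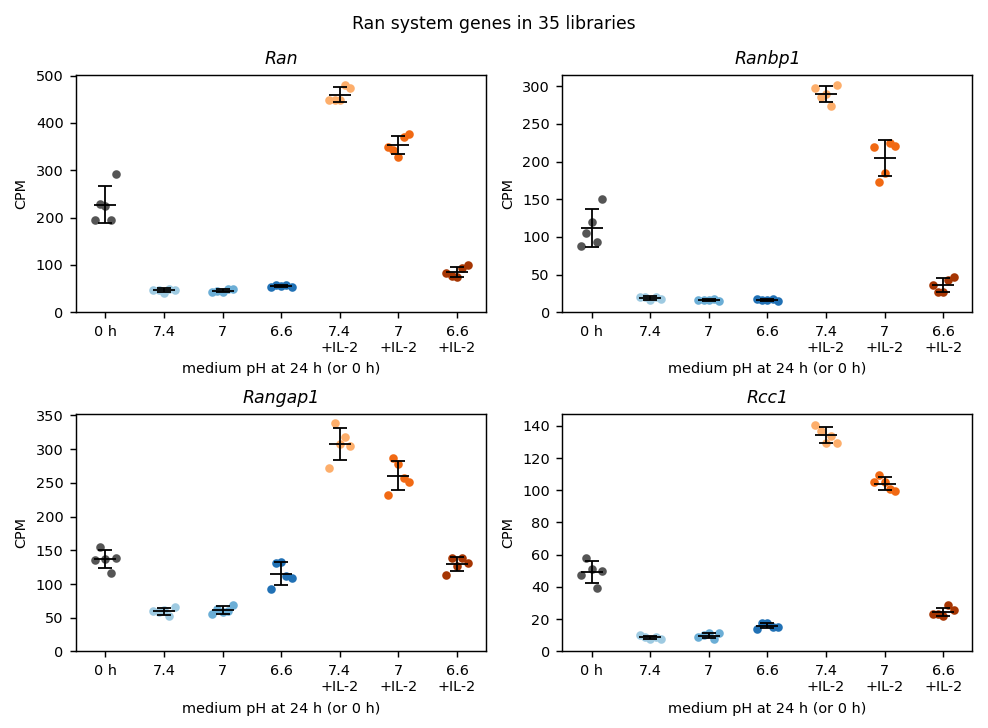
Level of Ran, Ranbp1, Rangap1 and Rcc1 in CPM (vertical axes, from 0) in each of the 35 libraries, by group (horizontal axes); points are libraries, and bars the mean and SD of 5. Each gene is highest at pH 7.4 with IL-2, where Ran has 459.7 CPM, and falls at pH 6.6 with IL-2 toward the groups without the cytokine; Ran has 85.1 CPM at pH 6.6 with IL-2 against 46.7 at pH 7.4 without IL-2.

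Importin alpha genes, whose products bind the classical nuclear localization signal, split in direction. Kpna2, the form best known from dividing cells, had 53.0, 67.2, 64.3, 59.7 and 49.2 CPM at pH 7.4 with IL-2 and 9.76, 10.4, 10.8, 11.6 and 12.3 CPM at pH 6.6. It fell by 2.41 on the log2 scale (SE 0.13, adjusted p = 1.3e-17 by edgeR's quasi-likelihood test) and the groups did not overlap. Kpna4 went the other way, from 229, 215, 217, 185 and 171 CPM to 387, 389.6, 465, 276 and 305 CPM. Every library at pH 6.6 was above every library at pH 7.4, and the rise was 0.84 on the log2 scale (SE 0.12, adjusted p = 2.9e-07 by the same test). Kpna3, the closest relative of Kpna4, fell by 0.79 (SE 0.10). Kpna6 rose by 0.20 (SE 0.07), from 96.2, 114, 106, 98.1 and 94.9 CPM to 103, 133, 128, 107 and 116 CPM, so its groups overlapped, and the call was lost under the loose filter. Kpna1 had 163, 156, 143, 131 and 124 CPM at pH 7.4 and 136, 151, 164, 112 and 124 CPM at pH 6.6, and its log2 fold change of -0.06 (SE 0.12) did not pass the test.

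On a scale per kilobase of exon the mixture of importin alpha transcripts changed with these moves. Kpna2 made up 17.3% ± 1.57 (SD, n = 5) of the summed level of Kpna1, Kpna2, Kpna3, Kpna4 and Kpna6 at pH 7.4 with IL-2, against 3.78% ± 0.789 at pH 6.6. Kpna4 made up 19.2% ± 0.826 and 39.3% ± 2.98. Without IL-2 the share of Kpna4 was 42.5% ± 1.03 at pH 7.4 and 41.4% ± 2.41 at pH 6.6, and that of Kpna2 was 1.72% ± 0.341 and 2.42% ± 0.406. At 0 h the shares were 26.1% ± 1.98 for Kpna4 and 6.83% ± 1.64 for Kpna2. By this measure the mixture at pH 6.6 with IL-2 lay nearer to that of the cells without IL-2 than to that at pH 7.4 with IL-2. Kpna2 shares most of its sequence with processed copies elsewhere in the genome, and 37.4% of its windows are unique, so its level and share were underestimated in every group and can be compared between groups only.

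**Figure D2:**
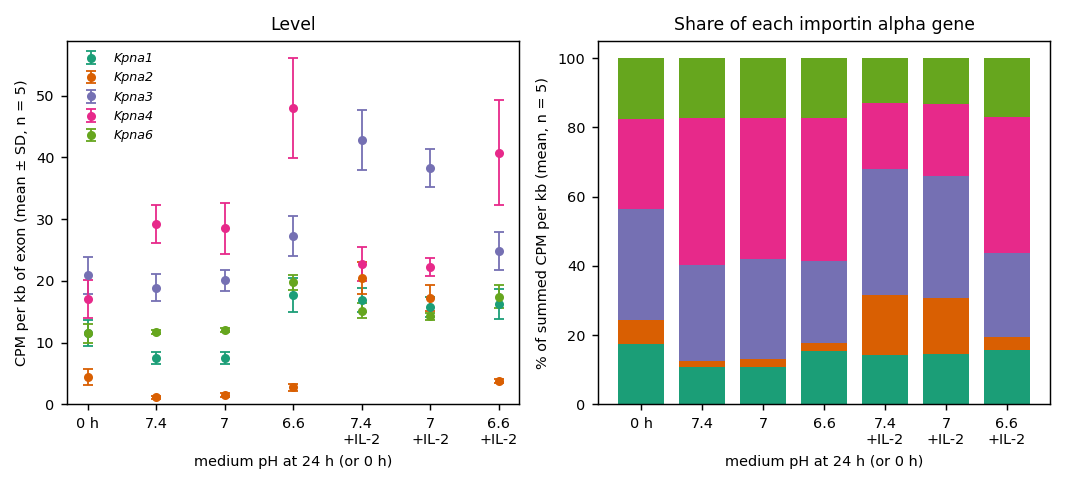
Left, level of the 5 tested importin alpha genes in CPM per kb of exon (mean ± SD, n = 5) in each group; right, the share of each in their sum, in percent. With IL-2, Kpna2 takes 17.3% of the sum in the medium of pH 7.4 but 3.78% at pH 6.6, while Kpna4 goes from 19.2% to 39.3%.

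All 8 receptors of the importin beta type fell, with a median log2 fold change of -1.24. Kpnb1, the partner of importin alpha, fell by 1.16 (SE 0.07), from 896 ± 69.7 CPM to 402 ± 9.89 CPM (mean ± SD, n = 5). Ipo4, an importer of histones, moved most, from 90.6, 102, 90.1, 107 and 95.2 CPM to 26.6, 18.7, 15.4, 29.5 and 29.8 CPM, a log2 fold change of -2.03 (SE 0.14). Ipo5, which imports ribosomal proteins and histones, went from 536, 593, 568, 512 and 519 CPM to 153, 146, 147, 167 and 178 CPM, a change of -1.78 (SE 0.08). In both, no library at pH 6.6 reached the lowest at pH 7.4. Ipo11, Ipo13, Ipo9 and Ipo7 fell by 1.42, 1.33, 0.93 and 0.65. The smallest fall was in Ipo8, a relative of Ipo7, with 104, 107, 100.04, 91.4 and 80.7 CPM against 71.3, 71.0, 76.6, 63.9 and 66.1 CPM and a change of -0.47 (SE 0.08).

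All 6 exportins fell as well, with a median of -0.78. Xpo1, which exports proteins with leucine-rich signals, had 670.4, 699.9, 686, 588 and 519 CPM at pH 7.4 and 215, 197, 236, 199.6 and 211 CPM at pH 6.6. The groups did not overlap and the log2 fold change was -1.58 (SE 0.11, adjusted p = 2.9e-14 by edgeR's quasi-likelihood test). Xpo5, the exporter of microRNA precursors, fell by 1.19 (SE 0.09), from 121, 136, 119, 99.97 and 96.1 CPM to 56.0, 47.4, 45.6, 49.2 and 51.2 CPM. Xpot, which exports transfer RNA, Xpo4, and Xpo6, the exporter of actin, fell by 0.79, 0.76 and 0.44. Xpo7 moved least, with 168, 200.4, 183, 159.9 and 147 CPM against 138, 162, 163, 141 and 149 CPM, groups that overlapped. Its change of -0.19 (SE 0.08, adjusted p = 0.027 by the same test) lost its call under 9 alternatives.

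In the scaffold of the pore, all 6 members of the outer ring and all 5 of the inner ring fell, with medians of -1.60 and -1.40. The 6 outer ring genes taken in by the symbol rule ranged from -1.32 in Nup160 to -1.82 in Nup37. Sec13, Seh1l and Ahctf1, whose symbols do not match the rule, were counted with the other genes of the pathway. Nup98 was placed with the channel, so the range does not cover these genes. Nup37 had 39.6, 44.5, 44.3, 40.1 and 41.5 CPM at pH 7.4 and 11.8, 11.2, 12.4, 12.3 and 11.95 CPM at pH 6.6. Nup107 had 146, 171, 172, 143 and 156 CPM and 42.9, 42.9, 49.2, 50.2 and 54.2 CPM, and Nup160 had 137, 155, 143, 118 and 117 CPM and 52.7, 53.4, 57.6, 49.6 and 54.1 CPM. No library of 1 group reached the range of the other in these 3 genes. In the inner ring, Nup93, which links the scaffold to the channel, fell from 165, 177, 163, 156 and 153 CPM to 44.7, 43.3, 40.4, 52.7 and 49.7 CPM, by 1.82 (SE 0.08, adjusted p = 2.3e-19 by edgeR's quasi-likelihood test). Nup155 fell from 167, 165, 158, 133 and 129 CPM to 63.7, 51.6, 55.1, 54.3 and 54.2 CPM and Nup188 from 141, 174, 153, 146 and 135 CPM to 69.7, 80.5, 72.7, 79.6 and 77.6 CPM. Their changes were -1.43 (SE 0.09) and -0.97 (SE 0.10). Part of Nup35 (63.2% unique windows) has near copies, and 10.4% of the exons of Nup133 overlap genes on the opposite strand, so their levels are less certain.

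The channel and the faces of the pore moved less evenly. Nup62 and Nup54, partners in the central channel, fell by 1.26 (SE 0.07) and 1.03 (SE 0.07). Nup62 went from 132, 151, 139, 151 and 140.3 CPM to 51.0, 62.9, 56.0, 64.9 and 63.8 CPM and Nup54 from 83.6, 93.2, 92.5, 87.6 and 92.7 CPM to 39.9, 43.2, 46.2, 44.5 and 47.0 CPM, without overlap in either. Nup98, which lines the channel, fell by 0.24 (SE 0.08), from 167 ± 14.7 CPM to 142 ± 14.3 CPM (mean ± SD, n = 5). On the cytoplasmic side, Nup214 fell by 0.56 (SE 0.11), from 147 ± 19.6 CPM to 99.9 ± 10.5 CPM, and its partner Nup88 by 0.23 (SE 0.08), from 173 ± 12.5 CPM to 147 ± 9.63 CPM.

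Changes in the nuclear basket were small. Nup153 had 353, 381, 349.7, 277 and 255 CPM at pH 7.4 with IL-2, and 309, 314, 329.6, 268 and 290.1 CPM at pH 6.6, groups that overlapped widely. Its log2 fold change was -0.09 (SE 0.11, adjusted p = 0.47 by edgeR's quasi-likelihood test). Nup50 had 181, 223, 211, 207 and 192 CPM and 148, 194, 182, 179.7 and 178 CPM, and fell by 0.20 (SE 0.05). The calls of Nup50, Nup88 and Nup98 were lost without the libraries numbered 1 and without those numbered 2, where the changes were between -0.11 and -0.17. Nup210, which spans the pore membrane, fell by 0.82 (SE 0.13), from 654, 697, 602, 621 and 536 CPM to 342, 323, 302, 422 and 361 CPM. Nup210l, its relative known from germ cells, fell by 1.08 (SE 0.21) at levels of only 4.72 ± 1.20 CPM and 2.25 ± 0.545 CPM.

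**Figure D3:**
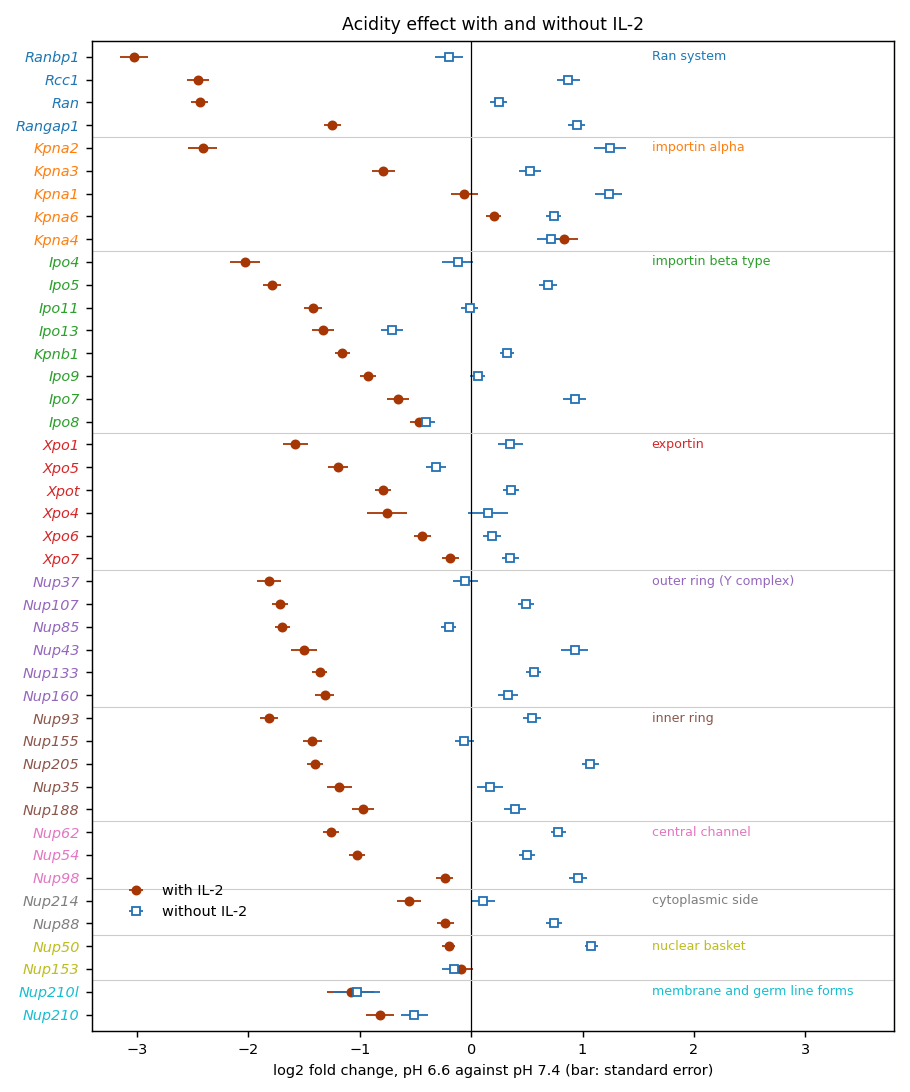
Log2 fold change of the 43 tested members at pH 6.6 against pH 7.4 with IL-2 (filled circles) and without IL-2 (open squares), in rows by role; bars are 1 standard error and the line marks no change. With IL-2 the circles lie left of the line except Kpna4 and Kpna6, while without it 27 squares lie to the right past the test.

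The other 29 genes of the pathway, all of them tested, were also mostly lower, with 23 lower and 3 higher at pH 6.6 with IL-2 and a median log2 fold change of -0.54. Their 2 largest falls were Ndc1, a membrane nucleoporin, at -2.48 (SE 0.11), and Rangrf, which acts on nucleotide-bound Ran, at -1.90 (SE 0.18). Of the exons of Rangrf 90.7% overlap genes on the opposite strand, so its value is uncertain. The 2 largest rises were Ranbp6, a relative of Ipo5, at 0.85 (SE 0.10), and Mcm3ap, which takes part in mRNA export, at 0.79 (SE 0.08). The remaining rise was Aaas, at 0.64. Cse1l, which returns importin alpha to the cytoplasm and was picked out after its value was seen, fell by 1.61 (SE 0.11). Nupl1 (Nup58) and Nupl2 (Nup42) fell by 0.88 and 1.41.

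A milder step was seen at pH 7. With IL-2, 18 of the 43 members fell at pH 7 against pH 7.4 and 0 rose, where 9.83% of all genes fell and 9.15% rose. The 2 largest called falls were those of Ranbp1, at -0.51 (SE 0.12), and Nup43, an outer ring member, at -0.43 (SE 0.11). All 4 genes of the Ran system and all 6 of the outer ring were among those that fell, and 0 of the 5 importin alpha genes were. Ran had 349.7, 343, 328, 369.5 and 376 CPM at pH 7, all below the libraries at pH 7.4, and its change was -0.38 (SE 0.07, adjusted p = 4.0e-04 by edgeR's quasi-likelihood test). Rcc1 had 105, 109.6, 105, 101 and 99.3 CPM and a change of -0.37 (SE 0.09). Kpna2 had 39.9, 47.3, 51.4, 53.8 and 55.3 CPM, and its change of -0.24 (SE 0.12) did not pass the test. Leaving out the libraries numbered 3 left 10 calls of the 18, and scaling by total count 13, all of them falls. The outer ring took many of these losses. It kept 1 of its 6 calls without the libraries numbered 3 (Nup43 was among those lost), 2 without those numbered 2, 3 with total count scaling, and 4 without the replicate block or with the loose filter. Rangap1 lost its call under 6 of the 12 alternative fits, and the other 3 genes of the Ran system under 0. The median log2 fold change at pH 7 was -0.21, against -1.18 at pH 6.6, and both comparisons used the same libraries at pH 7.4.

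Without IL-2, acidity went with higher levels of many members. At pH 6.6 against pH 7.4, 27 of the 43 rose and 6 fell, with a median log2 fold change of 0.35, where 31.6% of all genes rose and 35.4% fell. The summed level of the 6 cycling genes had medians of 984 CPM at pH 6.6 and 294 at pH 7.4, and its part was not tested. All 5 importin alpha genes and all 3 of the central channel rose. Kpna2 had 3.13, 4.01, 4.11, 2.84 and 2.74 CPM at pH 7.4 and 6.10, 9.97, 9.31, 7.32 and 7.37 CPM at pH 6.6, a log2 fold change of 1.24 (SE 0.14). Kpna1, which did not pass the test with IL-2, had 73.96, 56.9, 62.8, 70.9 and 54.4 CPM and 161, 174, 155, 112 and 151 CPM, with a rise of 1.24 (SE 0.12, adjusted p = 1.7e-10 by edgeR's quasi-likelihood test). Neither gene overlapped between the groups. Nup50 rose by 1.08 (SE 0.06), from 84.2, 94.5, 88.1, 94.1 and 100.1 CPM to 163, 206, 193, 207 and 208 CPM, and Kpna4 by 0.71 (SE 0.12), from 282, 245, 269, 287 and 222 CPM to 474, 492, 460.3, 313 and 405 CPM.

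In the Ran system without IL-2, Rangap1 rose by 0.95 (SE 0.07), from 60.0, 57.9, 60.8, 52.7 and 65.4 CPM to 92.1, 131, 132, 112 and 109 CPM. Rcc1 rose by 0.87 (SE 0.10) and Ran by 0.25 (SE 0.07), the latter from 47.0, 47.8, 41.0, 49.9 and 47.8 CPM to 52.8, 57.3, 56.3, 56.7 and 53.7 CPM. Ranbp1 had 20.3, 20.5, 15.5, 20.6 and 16.99 CPM and 16.8, 15.8, 16.1, 17.9 and 15.1 CPM, and its change of -0.20 (SE 0.13) did not pass the test. The 6 members that fell were Nup210l, Ipo13, Nup210, Ipo8, Xpo5 and Nup85, by 1.03, 0.71, 0.51, 0.41, 0.31 and 0.20. Each of them also fell at pH 6.6 with IL-2. Scaling by total count, which shifted the median of all genes by -0.15, gave 23 higher and 9 lower members, and the rise of Ran was among the calls lost.

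At pH 7 without IL-2, 0 of the 43 members rose and 0 fell by edgeR's quasi-likelihood test, where 1.36% of all genes rose and 0.318% fell. DESeq2 called 0 as well, and 2 members had an unadjusted p under 0.05. The log2 fold changes ran from -0.21 in Ranbp1 to 0.42 in Kpna2 (SE 0.15).

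Most members were higher with IL-2 at neutral pH. At pH 7.4, 39 of the 43 members were higher with IL-2 than without it and 1, Kpna4, was lower, where 39.3% of all genes were higher and 41.1% lower. Members moved by a median of 1.47 on the log2 scale. Kpna2 rose by 4.12 (SE 0.14), Ranbp1 by 3.94 (SE 0.13) and Rcc1 by 3.94 (SE 0.11). Without IL-2 these genes had 3.13, 4.01, 4.11, 2.84 and 2.74 CPM for Kpna2, 20.3, 20.5, 15.5, 20.6 and 16.99 CPM for Ranbp1 and 10.4, 8.72, 7.54, 8.85 and 7.92 CPM for Rcc1. Ran rose by 3.30 (SE 0.08) from 47.0, 47.8, 41.0, 49.9 and 47.8 CPM. The 3 members that did not pass the test were Nup153, Ipo8 and Nup210l, at -0.20 (SE 0.11), 0.08 (SE 0.08) and 0.11 (SE 0.20). At pH 7, 39 members were higher and 2 lower with IL-2, where 37.6% of all genes were higher and 39.5% lower, and the median was 1.23.

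At pH 6.6 the effect of IL-2 was small. With IL-2, 13 members were higher and 2 lower, where 13.2% of all genes were higher and 10.6% lower, at a median change of 0.09 on the log2 scale. Ranbp1 rose by 1.12 (SE 0.12), Ipo4 by 0.78 (SE 0.14), Rcc1 by 0.62 (SE 0.10), Ran by 0.61 (SE 0.07) and Kpna2 by 0.47 (SE 0.13). Rangap1 had a change of 0.17 (SE 0.07) and did not pass the test. The call of Kpna2 was lost without the replicate block and without the libraries numbered 5. Among nucleoporins the called rises were those of Nup85, Nup210, Nup93, Nup205 and Nup107, between 0.20 and 0.43, of which Nup85 alone kept its call under all 12 alternative fits. The 2 that fell were Nup98, by 0.21, and Kpna6, by 0.18, and both calls were lost under 9 of the 12 fits, among them each that left out a replicate. The count of 15 calls was 7 without the libraries numbered 4, 9 without those numbered 5, and 23 when only the groups compared were fitted. Scaling by total count gave 16 higher and 0 lower.

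**Figure D4:**
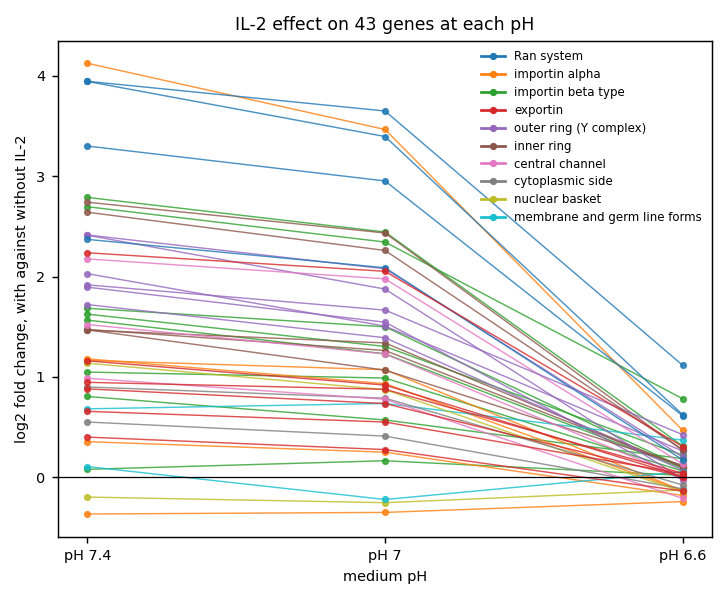
Log2 fold change with against without IL-2 (vertical axis) at pH 7.4, pH 7 and pH 6.6 (horizontal axis), 1 line per tested member, coloured by role. The lines lie high at pH 7.4, up to 4.12 in Kpna2, and gather near 0 at pH 6.6, where the median is 0.09.

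The difference between the acidity effects with and without IL-2 was tested itself, as an interaction, which is also the difference between the IL-2 effects at pH 6.6 and at pH 7.4. It was negative past the test in 38 of the 43 members and positive in 0, where 32.8% of all genes were negative and 34.3% positive. The median was -1.37 on the log2 scale. Kpna2 had -3.66 (SE 0.19, adjusted p = 3.5e-17 by edgeR's quasi-likelihood test), Rcc1 -3.32 (SE 0.14), Ranbp1 -2.83 (SE 0.18) and Ran -2.69 (SE 0.11). In 24 members the acidity effect was a called fall with IL-2 and a called rise without it. Of all genes, 40.9% fell with IL-2 and 31.6% rose without it, and the share that did both was not computed. The 5 members without a called interaction were Nup210, Ipo8, Nup210l, Nup153 and Kpna4, at -0.31 (SE 0.18), -0.06 (SE 0.11), -0.05 (SE 0.30), 0.07 (SE 0.15) and 0.12 (SE 0.17). Kpna4 thus rose at pH 6.6 both with and without IL-2, by 0.84 and 0.71.

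Set against the start, 40 members were higher after 24 h at pH 7.4 with IL-2 and 2 were lower, where 29% of all genes were higher and 30.9% lower. Kpna2 rose by 2.21 (SE 0.12) from 8.45, 16.7, 16.5, 10.2 and 12.5 CPM at 0 h, and Nup93 rose 3.49-fold from 42.8, 53.8, 53.6, 39.6 and 43.6 CPM. The 2 that fell were Nup210l and Xpot. At pH 6.6 with IL-2, 10 members were higher and 21 lower than at 0 h, where 30.5% of all genes were higher and 38% lower. Ran fell by 1.41 (SE 0.07) from 195, 228, 225, 195 and 291 CPM at 0 h, and Ranbp1, from 88.5, 106, 119, 93.2 and 151 CPM, fell by 1.65 (SE 0.12). The largest rise was in Kpna4, by 1.23 (SE 0.12) from 116, 147, 155, 194 and 153 CPM.

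After 24 h at pH 7.4 without IL-2, 33 members were lower than at 0 h and 5 higher, where 38.3% of all genes were lower and 36.9% higher. Ranbp1 fell by 2.56, Ipo4 by 2.42 and Ran by 2.28, with SE from 0.08 to 0.14. The 5 that rose were Nup153, Kpna4, Xpo7, Nup214 and Ipo8, by 0.83, 0.76, 0.39, 0.37 and 0.20. Fitting only the groups compared removed the calls of Nup214 and Ipo8, and Ipo8 also lost its call without the libraries numbered 5. Without those libraries, which include the one that stood apart at 0 h, 42 of 42, 31 of 31 and 37 of 38 calls against 0 h were kept (pH 7.4 with IL-2, pH 6.6 with IL-2 and pH 7.4 without). Other fits kept fewer of the 31 calls at pH 6.6 with IL-2. Leaving out the libraries numbered 2 kept 25, and fitting only the groups compared kept 24. Nup107, Nup160, Nup155 and Xpo1 were among the calls lost in each of these fits. The 3 comparisons with 0 h share their starting libraries.

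**Figure D5:**
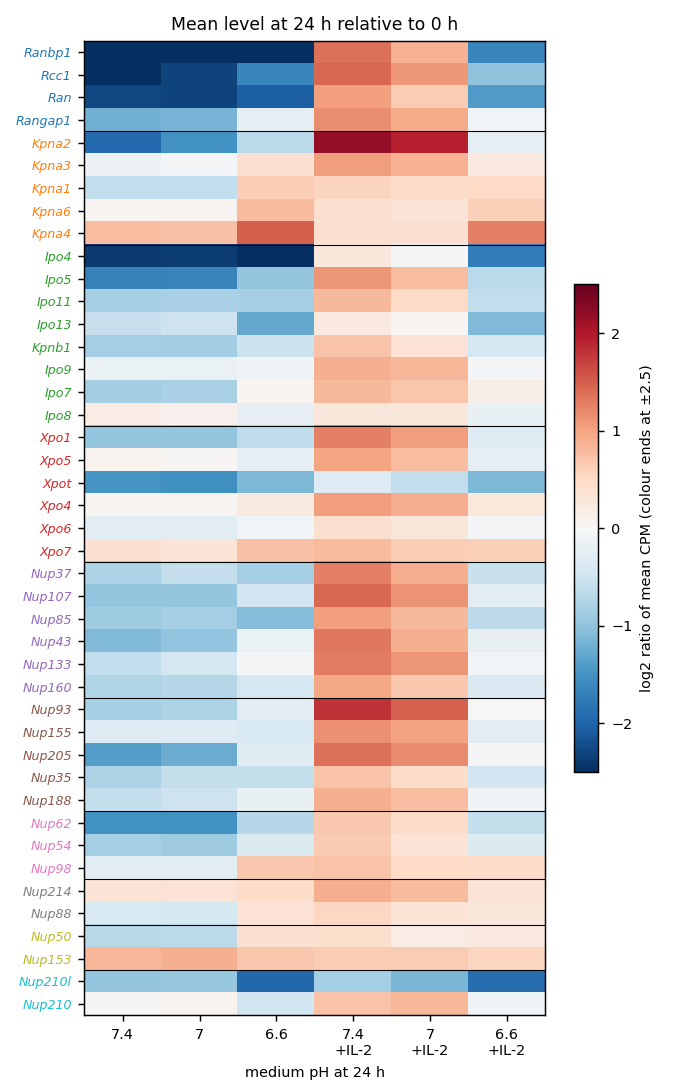
Log2 ratio of the mean CPM of each tested member in the 6 groups at 24 h (columns) to its mean at 0 h (colour, ending at ±2.5), in rows by role. Pore scaffold and Ran system rows are red at pH 7.4 and pH 7 with IL-2 and pale or blue elsewhere, while Kpna4 is red in every column.

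Over the 7 groups, the mean level was highest at pH 7.4 with IL-2 in 35 of the 43 members and lowest at pH 7.4 without IL-2 in 17. The same counts were not made for all genes, of which 39.3% were higher and 41.1% lower with IL-2 at pH 7.4. The members differed widely in how far they moved. Between the highest and lowest group the ratio of mean CPM was 17.9 in Ranbp1, 17.4 in Kpna2 and 15.4 in Rcc1, but 1.41 in Ipo8, 1.60 in Xpo6 and 1.72 in Kpna6. The order of the members also changed. Per kilobase of exon, the highest levels at pH 7.4 with IL-2 were those of Ranbp1 at 174 CPM per kb, Ran at 174 and Kpnb1 at 136, and those of Ranbp1 and Ran differed by less than their spread. At pH 6.6 with IL-2 the highest were Kpnb1 at 61.0, Nup153 at 43.1 and Kpna4 at 40.8, of which Nup153 and Kpna4 differed by less than their spread. At pH 7.4 without IL-2 they were Nup153 at 52.3, Kpnb1 at 45.9 and Nup210 at 36.8. This ranking of different genes is approximate, because the length used joins all annotated exons of a gene. Genes with near copies, such as Ran (85.9% unique windows) and Kpna2 (37.4%), may also rank too low.

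Levels in other groups complete the account. At 0 h, Nup107, Nup160 and Nup37 of the outer ring had 58.3 ± 8.28, 68.3 ± 12.2 and 17.6 ± 3.64 CPM (mean ± SD, n = 5), and at pH 7 with IL-2 126 ± 5.66, 109 ± 5.03 and 33.3 ± 3.55 CPM. Without IL-2 at pH 7.4 they had 29.5 ± 1.98, 40.4 ± 1.89 and 10.3 ± 1.41 CPM, and at pH 6.6 41.7 ± 4.27, 51.1 ± 6.30 and 9.92 ± 0.725 CPM. The 3 genes had their highest mean at pH 7.4 with IL-2. For the inner ring, Nup93, Nup155 and Nup188 had 26.1 ± 2.02, 54.2 ± 3.93 and 53.7 ± 4.502 CPM at pH 7.4 without IL-2, and 38.2 ± 2.41, 52.2 ± 6.38 and 70.6 ± 3.40 CPM at pH 6.6. Nup93 and Nup188 rose, by 0.55 and 0.39 on the log2 scale, and Nup155 did not pass the test at -0.06 (SE 0.09).

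In the channel, Nup62 had 31.5 ± 1.98 CPM at pH 7.4 without IL-2 and 54.5 ± 5.81 CPM at pH 6.6, and Nup98 84.1 ± 3.66 and 164 ± 18.6 CPM. Both rose, by 0.78 (SE 0.07) and 0.96 (SE 0.08). Nup88 on the cytoplasmic side rose by 0.74 (SE 0.08), from 92.6 ± 5.77 to 155 ± 10.6 CPM, while Nup214 had 99.9 ± 6.48 and 108 ± 9.07 CPM and did not pass the test at 0.11 (SE 0.11). Among the receptors, Ipo5 had 79.0 ± 7.11 CPM at pH 7.4 without IL-2 and 128 ± 11.5 at pH 6.6, a rise of 0.69 (SE 0.08). Xpo1 had 134 ± 18.2 and 170.5 ± 26.4 CPM, a rise of 0.35 (SE 0.11) whose call was lost with total count scaling, without the libraries numbered 1 and without those numbered 2. Ipo4 had 15.04 ± 2.47 and 13.9 ± 2.56 CPM, a change of -0.12 (SE 0.14) that did not pass the test.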

How the data were processed

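Stranded libraries of polyadenylated RNA were read from 1 end. What the authors deposited were whole-number counts per gene, not normalized. The submitters' processing notes name cutadapt 1.8, STAR 2.5.2b, HTSeq 0.6.1 and GRCm38, while the annotation release and the strand setting are not given in the sources used here. Rows without a gene name entered neither library sizes nor tests: reads with several alignments (median 37.1%, from 32.8% to 48.3% of the reads in the tables), outside genes (7.42%) and overlapping several genes (0.922%). Reads with several alignments were not counted, so genes with near copies have counts that are too low. Symbols and coordinates were taken from GENCODE M21 for 48349 of the 48709 identifiers. For each member, the share of 50-base windows unique among transcripts of that annotation was computed.

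The function filterByExpr of edgeR 4.0.16 (R 4.3.3, minimum count 10) left 13819 genes for testing. After TMM scaling, a robust quasi-likelihood model covered the 35 libraries together, and the replicate number entered as a block beside the group. Adjusted p-values (Benjamini-Hochberg) cover all genes tested, at a threshold of 0.05. CPM are counts scaled to a common library size after TMM. The standard error was derived from the fold change and the F statistic. The study's statistics section names paired tests, but no source used here says that a number marks 1 culture. Same-numbered libraries deviated together in 95 of 105 pairs (r over 0.1), including all 5 of the main comparison (r from 0.198 to 0.416). The 70 library pairs within groups all differed by more than sampling noise (lowest chi-square per degree of freedom 6.66). If the libraries do not come from separate cultures, p-values measure only the spread between these samples. The common biological coefficient of variation was 0.120.

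The members and lists were chosen with earlier results of these data known. Written out in full were the Ran system, in each other role group the 2 members with the largest called change at pH 6.6 with IL-2 (mean log2 CPM of at least 3, same sign in 5 of 5 pairs) and the 1 with the smallest, and members that rose in that comparison. Alternatives were RLE and total count scaling, DESeq2 1.42.0, looser (1 count in any library) and stricter (10 counts in every library) filters, only the groups compared, no block, each replicate left out, and a minimum change of 1 on the log2 scale in either direction. Promoters came from RefSeq, and protein sequences were not used here.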

Additional observations from a re-analysis of the deposited data

Results flagged for a closer look

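Interaction values are listed for genes whose response to pH 6.6 depended on IL-2 by edgeR's quasi-likelihood test. Such a call was common and does not set these genes apart. It was made for 24 of the 28 genes screened, 38 of the 43 tested members and 9261 of all 13819 genes tested. The genes screened were also chosen in large part by their change at pH 6.6 with IL-2, which enters the interaction. The values are log2 differences, negative where the fall at pH 6.6 was deeper, or the rise smaller, with IL-2. The Ran system had -2.6863 in Ran, -2.8281 in Ranbp1, -3.3195 in Rcc1 and -2.1956 in Rangap1. Importin alpha genes had -3.6557 in Kpna2, -1.2972 in Kpna1 and -0.5358 in Kpna6. Other receptors had -2.4754 in Ipo5, -1.912 in Ipo4, -1.9299 in Xpo1, -0.8769 in Xpo5 and -0.537 in Xpo7. The scaffold had -2.3665 in Nup93, -2.2095 in Nup107, -1.7661 in Nup37, -1.6492 in Nup160, -1.3667 in Nup155 and -1.366 in Nup188. The channel and periphery had -2.0418 in Nup62, -1.5253 in Nup54, -1.2831 in Nup50, -1.1964 in Nup98, -0.9764 in Nup88 and -0.6647 in Nup214.

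Single libraries stood apart from the other 4 of their group by Dixon's test in 7 of the 196 groups of 5 screened. Chance gives about 1 in 20, so this count is no more than chance would give. At pH 7 with IL-2, library 2 was highest in Nup214 (158.285 CPM) and in Nup188 (152.861 CPM), and library 1 was lowest in Nup50 (156.804 CPM). At 0 h, library 5 was highest in Nup37 (23.924 CPM) and Nup88 (148.771 CPM). Library 1 was highest in Nup155 at pH 6.6 with IL-2 (63.669 CPM), and library 2 in Nup188 at pH 6.6 without IL-2 (76.587 CPM).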

How the results depend on the processing

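No member called in any comparison changed direction while still called under the alternatives run. Requiring a change of 1 or more on the log2 scale lowered the count of called members from 41 to 25 at pH 6.6 with IL-2, from 18 to 0 at pH 7 with IL-2, from 33 to 5 at pH 6.6 without IL-2, from 41 to 25 for IL-2 at pH 7, from 15 to 1 for IL-2 at pH 6.6, and against 0 h from 42 to 17 (pH 7.4 with IL-2), from 31 to 8 (pH 6.6 with IL-2) and from 38 to 11 (pH 7.4 without IL-2). For IL-2 at pH 6.6 the 15 calls became 9 under the loose filter and 23 with only the groups compared. That last fit also gave 1 call at pH 7 without IL-2, against 0. Leaving out each replicate in turn gave 10 to 19 calls at pH 7 with IL-2 and 7 to 13 for IL-2 at pH 6.6. The cause of these shifts was not tested. Without the replicate block the calls were 40 at pH 6.6 with IL-2, 14 at pH 7 with IL-2, 10 for IL-2 at pH 6.6 and 38 for the interaction, and the other comparisons moved by at most 1 call. Total count scaling shifted the median change of all genes by -0.15 at pH 6.6 without IL-2, by -0.16 and -0.12 for IL-2 at pH 7.4 and pH 7, and by 0.23 for the interaction. It moved the share of higher genes among all calls from 48.2% to 65.7% at pH 7 with IL-2, from 47.2% to 34.7% at pH 6.6 without IL-2, from 55.5% to 74.6% for IL-2 at pH 6.6 and from 51.1% to 62.8% for the interaction. Values near 0 that had not passed the test changed sign. For Kpna1 at pH 6.6 with IL-2 the change was 0.011 with total count scaling, 0.0030 with only the groups compared, and from -0.13 to 0.056 as each replicate was left out. For Nup153 there the last range was -0.15 to 0.035. As interactions, Ipo8 had 0.17 with total count scaling and -0.12 to 0.11 as each replicate was left out, and Nup153 had -0.015 to 0.27. With 0 to 3 reads per library, Kpna7 and Nup62cl gave no comparison at this depth, and Nup210l rests on 21 to 363 reads.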
